A study of Homo sapiens with 8 samples.

Results

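CYP1B1 is a cytochrome P450 and a known target gene of the aryl hydrocarbon receptor (AHR), and its level was followed on arrays of HEK293T cells together with the receptor and with other genes that the receptor controls. The 8 genes chosen were CYP1B1, CYP1A1, CYP1A2, AHR, AHRR, ARNT, TIPARP, and NQO1. CYP1B1 was chosen by its high level in one group of these same arrays, so its values below are a description without a test. The others were chosen for their place in the pathway. Probes were assigned to genes by RefSeq accession. Of the 8 genes, 7 had a probe that could be named, against 19480 genes on the array in all, and AHRR was not analysed here. The 7 genes had 10 of the 34127 probes, and 9 of these 10 were bright enough to be tested.

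HEK293T cells derive from human embryonic kidney and carry the large T antigen of SV40. All 8 cell lines were stable clones of it, selected with blasticidin after transfection with a pcDNA6/Myc-His plasmid, with 2 clones for each construct and 1 array for each clone. The empty vector clones (#1 and #2) carried the plasmid alone. The TET1-CDwt clones (#2 and #5) expressed the wild-type catalytic domain of TET1, an enzyme that oxidizes 5-methylcytosine. The MBD-TET1-CDwt clones (#3 and #10) expressed the same domain joined to the methyl-CpG-binding domain of MBD2, and the MBD-TET1-CDmut clones (#9 and #10) expressed that fusion with a catalytically inactivating substitution. No treatment other than the selection is described, and the labels name no AHR ligand. Each line is 1 clone, so the spread between the 2 arrays of a construct holds clonal and technical variation together. The empty vector and TET1-CDwt arrays lay on slide 1 and both MBD fusions lay on slide 2, so that slide and MBD fusion cannot be told apart when a fusion is set against the empty vector, whereas TET1-CDwt against the empty vector and MBD-TET1-CDwt against MBD-TET1-CDmut are comparisons within a slide.

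AHR is a ligand-activated transcription factor that is held in the cytoplasm by HSP90 and its cochaperones, among them p23. When bound by an aromatic ligand such as a dioxin, a combustion product, or a tryptophan metabolite, it moves to the nucleus, pairs with ARNT, and binds DNA at the xenobiotic response element, whose core contains a CpG. CYP1A1, CYP1A2, and CYP1B1 are the textbook targets, together with TIPARP and AHRR, which feed back on the receptor, and NQO1, which is shared with the oxidative stress factor NRF2. CYP1B1 oxidizes polycyclic hydrocarbons and estradiol and is a gene whose promoter can be methylated in cancer cells.

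Levels are log2 processed signals from which the log2 of the array's own 75th percentile was subtracted, so that 0 is the level of that percentile and values of different probes are not set against each other. The 75th percentile lay at an intensity of 328 to 527, and 63.2% to 68.2% of the probes were well above background, a flag of the scanner software. Probes that were not well above background on any array differed by a median of 0.37 (log2) between MBD-TET1-CDwt and the empty vector, by 0.35 between MBD-TET1-CDmut and the empty vector, and by 0.03 between the fusions. This shift in dim probes thus lay between the slide 1 arrays and the slide 2 arrays, and the latter are also the MBD fusions. The median difference of all 22530 tested probes lay between -0.03 and 0.01 in the 4 comparisons. Of 9 genes typical of HEK293T, 8 were well above background on all 8 arrays, with PAX8 the exception, which was above it on 3 arrays. KLK3, CD3E, PECAM1, ALB, TTR, COL1A2, and DCN, markers of prostate, blood, endothelium, liver, and fibroblasts, were above it on none. The brighter TET1 probe lay between 2.61 and 2.94 on the 8 arrays and the brighter MBD2 probe between 1.25 and 1.65. The second TET1 probe was highest in MBD-TET1-CDmut (-0.91 and -0.70) and lowest in MBD-TET1-CDwt (-1.55 and -1.44), with the 4 other arrays between -1.31 and -1.03, so none of these probes was higher in every line that carries the TET1 domain than in the empty vector. The files do not say whether these probes read the part carried by the plasmids, so they do not check the labels.

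The core of the xenobiotic response element, GCGTG on either strand, was looked for in promoter windows of 300 bases taken from RefSeq (GRCh38.p14), which run from 250 bases before to 50 after a transcription start. A window was held for 7 of the 8 members, the exception being CYP1B1. The 250 bases before the start are shown for CYP1A1, the classical target, and for the first of the 3 starts of TIPARP, because their windows have the core upstream of the start and the genes differed in how they behaved on the arrays. Capitals mark the core. The CYP1A1 sequence lies at chr15:74725529-74725778 on the minus strand and the TIPARP sequence at chr3:156674340-156674589 on the plus strand.

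CYP1A1: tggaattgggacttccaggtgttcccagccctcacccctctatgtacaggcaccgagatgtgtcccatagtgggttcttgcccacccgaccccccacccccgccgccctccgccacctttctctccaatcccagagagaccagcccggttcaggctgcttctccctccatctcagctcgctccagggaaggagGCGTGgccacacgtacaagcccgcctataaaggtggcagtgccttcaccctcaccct

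TIPARP: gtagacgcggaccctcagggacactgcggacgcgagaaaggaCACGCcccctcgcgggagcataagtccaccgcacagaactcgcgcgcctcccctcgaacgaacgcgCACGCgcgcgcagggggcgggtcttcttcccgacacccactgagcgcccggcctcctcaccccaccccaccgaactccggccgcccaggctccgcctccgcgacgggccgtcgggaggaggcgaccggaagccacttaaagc

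In CYP1A1 the core began 57 bases before the start, and these 250 bases held 10 CpG dinucleotides. In the TIPARP sequence shown it began 208 and 142 bases before the start, among 35 CpGs. The windows of AHR and NQO1 had the core once each, after the start, the 2 AHRR windows had it 1 and 2 times, and those of ARNT, CYP1A2, and the 2 other TIPARP starts did not contain these letters. The CYP1A2 window had 1 CpG, against a median of 14 for all promoters. The core is short and common, and 36.5% of all 35116 windows of this length held it, so a match is a description of the sequence and not a binding site.

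CYP1B1 was high in both MBD-TET1-CDwt clones and in no other line. By the brighter of its 2 probes (A_23_P209625, NM_000104) its level was -2.38 and -2.22 in empty vector #1 and #2, -1.37 and -1.97 in TET1-CDwt #2 and #5, 0.30 and 0.53 in MBD-TET1-CDwt #3 and #10, and -2.31 and -2.37 in MBD-TET1-CDmut #9 and #10. Both MBD-TET1-CDwt clones lay above all 6 other arrays, the lower of them by 3.19-fold over the highest other array, which was TET1-CDwt #2. The probe was well above background on every array, with intensities from 67.1 to 474, so CYP1B1 RNA was already measurable in the lines with the empty vector.

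The mean difference between MBD-TET1-CDwt and the empty vector was 2.72 ± 0.24 (log2, standard error of the limma fit, n = 2 per group), or 6.60-fold. Within slide 2, over MBD-TET1-CDmut, the difference was 2.76 ± 0.24, or 6.76-fold. The single clones were close to each other, at 6.10-fold for #3 and 7.14-fold for #10 over the empty vector mean. With normexp, a background correction that started here from the median instead of the processed signal of each spot, modeled the background on the negative control spots, and added an offset of 50, the difference from the empty vector was 2.07 and that from MBD-TET1-CDmut 2.11. Of the 22530 tested probes, 78 had a larger difference from the empty vector and 68 a larger one from MBD-TET1-CDmut.

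The second CYP1B1 probe (A_33_P3290343, same accession) was dimmer, with intensities from 11.6 to 109, but was also well above background on all arrays. Its levels were -4.93 and -4.89 in the empty vector clones, -3.93 and -3.94 in TET1-CDwt #2 and #5, -2.57 and -1.59 in MBD-TET1-CDwt #3 and #10, and -4.15 and -4.45 in MBD-TET1-CDmut #9 and #10. The MBD-TET1-CDwt clones were again the highest, with a difference of 2.83 ± 0.32 from the empty vector (7.10-fold) and of 2.22 ± 0.32 from MBD-TET1-CDmut (4.66-fold). This probe parted the 2 clones more than the brighter one did, at 5.06-fold for #3 and 9.96-fold for #10 over the empty vector. With normexp its differences were 1.25 and 0.99.

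The probes gave the same order for the constructs at the top but not at the bottom. TET1-CDwt, the domain without the MBD, came second by both, 1.55-fold over the empty vector by the brighter probe and 1.97-fold by the dimmer one, and both of its clones lay above both empty vector clones on either probe. With normexp the second place held on the brighter probe (0.36 above the empty vector) but turned on the dimmer one, where TET1-CDwt lay 0.11 and MBD-TET1-CDmut 0.26 above the empty vector. The MBD-TET1-CDwt clones lay above the TET1-CDwt mean by 3.92-fold (#3) and 4.59-fold (#10) on the brighter probe and by 2.57-fold and 5.06-fold on the dimmer one, across the slides. MBD-TET1-CDmut and the empty vector could not be separated on the brighter probe, where their means differed by -0.03 and the clones overlapped, while the dimmer probe put MBD-TET1-CDmut 0.61 higher with no overlap. The dim probes as a whole were 0.35 higher in this comparison, which crosses the slides, and the part of that shift in the gap was not tested.

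**Figure D1:**
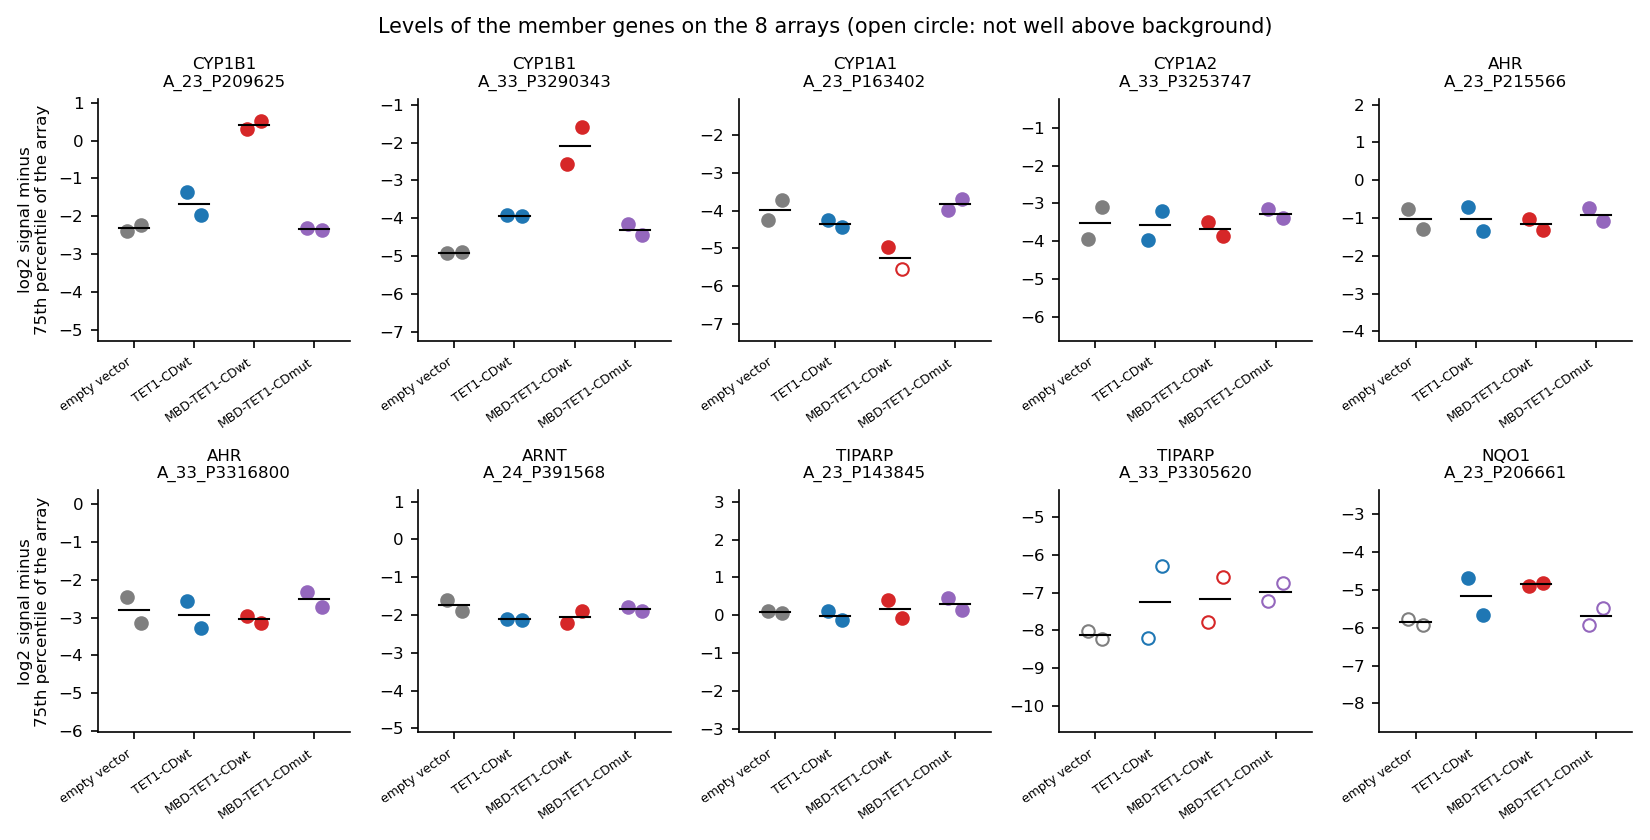
Level of each member probe on the 8 arrays, scaled to the 75th percentile as above (log2, y axis, the same height in log2 units in every panel), by construct (x axis). Each circle is 1 clone, open where the probe was not well above background, and the line is the mean of 2 clones. Both CYP1B1 probes were highest in the MBD-TET1-CDwt clones, CYP1A1 was lowest there, and the brighter probes of AHR and TIPARP spanned 0.62 and 0.57 over the 8 arrays.

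The receptor and its partner had no difference of the size seen for CYP1B1. AHR was well above background on all arrays by both probes, and its brighter probe (A_23_P215566) spanned only 0.62 (log2) over the 8 arrays, from -1.34 to -0.72, against 2.92 for CYP1B1. The 2 MBD-TET1-CDwt clones lay at -1.02 and -1.31 and the empty vector clones at -0.77 and -1.28, so the groups overlapped. The difference was -0.14 (95% interval -0.84 to 0.55, limma adjusted p = 0.96) from the empty vector and -0.26 (-0.95 to 0.44, adjusted p = 0.90) from MBD-TET1-CDmut. The second AHR probe gave -0.24 and -0.52. A difference of AHR as large as that of CYP1B1 lies outside these intervals, which reach 0.55 and 0.44 upward.

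ARNT, the dimerization partner that AHR shares with the hypoxia-inducible factors, was at -1.59 and -1.89 in the empty vector clones, -2.10 and -2.13 in TET1-CDwt, -2.20 and -1.91 in MBD-TET1-CDwt, and -1.78 and -1.91 in MBD-TET1-CDmut. Its level was slightly lower in the 2 wild-type constructs than in the empty vector, with no overlap of clones, by -0.31 in MBD-TET1-CDwt (adjusted p = 0.87) and -0.37 in TET1-CDwt (adjusted p = 1.00 by limma). Neither passed, and 30.8% and 27.7% of all tested probes had no overlap of clones in these comparisons (34.7% for MBD-TET1-CDmut against the empty vector and 36.0% for MBD-TET1-CDwt against MBD-TET1-CDmut).

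CYP1A1, the gene most often used as the readout of AHR activity, had its lowest levels where CYP1B1 was highest. Its probe (A_23_P163402, NM_000499) gave -4.25 and -3.71 in the empty vector clones, -4.24 and -4.44 in TET1-CDwt #2 and #5, -4.96 and -5.53 in MBD-TET1-CDwt #3 and #10, and -3.97 and -3.69 in MBD-TET1-CDmut #9 and #10. The 2 MBD-TET1-CDwt clones were the lowest of the 8, and clone #10 was not well above background. The difference was -1.27 ± 0.28 (2.41-fold lower, adjusted p = 0.41) from the empty vector and -1.42 ± 0.28 (2.67-fold lower, adjusted p = 0.31) from MBD-TET1-CDmut, so it did not pass in either comparison after adjustment over all probes. The signal was low throughout, with intensities from 7.09 to 34.0, and with normexp the difference from the empty vector was -0.15 and that from MBD-TET1-CDmut -0.26. Over the 8 arrays its correlation with CYP1B1 was r = -0.91, a description in which the 8 points are 4 constructs with 2 clones each.

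CYP1A2, which lies next to CYP1A1 and is mainly a liver enzyme, was well above background on all arrays and ranged from -3.98 to -3.09. MBD-TET1-CDwt #3 and #10 were at -3.49 and -3.85, within the range of the empty vector clones at -3.94 and -3.09. The difference was -0.16 (95% interval -1.03 to 0.71, adjusted p = 0.96) from the empty vector.

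TIPARP, a mono-ADP-ribosyltransferase that is induced by AHR and represses it, was well above background on all arrays by its brighter probe. This probe (A_23_P143845) gave 0.10 and 0.07 in the empty vector clones and 0.39 and -0.06 in MBD-TET1-CDwt #3 and #10, and all 8 arrays lay between -0.12 and 0.45. The difference from the empty vector was 0.08 (95% interval -0.45 to 0.60, adjusted p = 0.97) and from MBD-TET1-CDmut -0.14 (adjusted p = 0.93). The second TIPARP probe was not well above background on any array.

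NQO1, a quinone reductase, lay higher in MBD-TET1-CDwt as well, but near the detection limit. Its levels were -5.78 and -5.94 in the empty vector clones, -4.68 and -5.66 in TET1-CDwt #2 and #5, -4.90 and -4.80 in MBD-TET1-CDwt #3 and #10, and -5.91 and -5.47 in MBD-TET1-CDmut #9 and #10. It was well above background in the TET1-CDwt and MBD-TET1-CDwt clones and on none of the 4 other arrays. MBD-TET1-CDwt was 2.01-fold higher than the empty vector and 1.57-fold higher than MBD-TET1-CDmut by a rule for dim signals. The rule took a dim signal as no lower than the faintest one that its array still marked as well above background. It left the first fold at its measured value, because both empty vector signals lay above that level. Neither fold is a lower limit, as the limma intervals of the differences started at 0.22 and 0.06 (log2). The measured differences were 1.01 (adjusted p = 0.68) and 0.84 (adjusted p = 0.72), and 0.69 for TET1-CDwt against the empty vector (adjusted p = 1.00). None passed. With normexp the first was 0.32 and the last turned to -0.11. The intensities were 5.52 to 20.5. The dim probes as a whole were 0.37 higher in MBD-TET1-CDwt than in the empty vector, and the part of that shift in the first of these differences was not tested.

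With CYP1B1 left out, 6 members were tested in each of the 4 comparisons, and none was called by limma (adjusted p under 0.05). At an unadjusted p under 0.05 there were 2 genes, CYP1A1 and NQO1, in MBD-TET1-CDwt against the empty vector, the same pair in MBD-TET1-CDwt against MBD-TET1-CDmut, and 0 in the other comparisons, where 6.6% and 6.84% of all tested probes in the first pair of comparisons and 2.5% and 2.68% in the second pair were under it. The calls over all tested probes were few. They were 0.115% of the probes for MBD-TET1-CDwt against the empty vector, 0.102% for MBD-TET1-CDwt against MBD-TET1-CDmut, and 0.0% for TET1-CDwt and for MBD-TET1-CDmut against the empty vector. With 2 clones a group and 4 residual degrees of freedom, a gene that misses the threshold is not shown to be unchanged, and the intervals above give what remained possible.

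**Figure D2:**
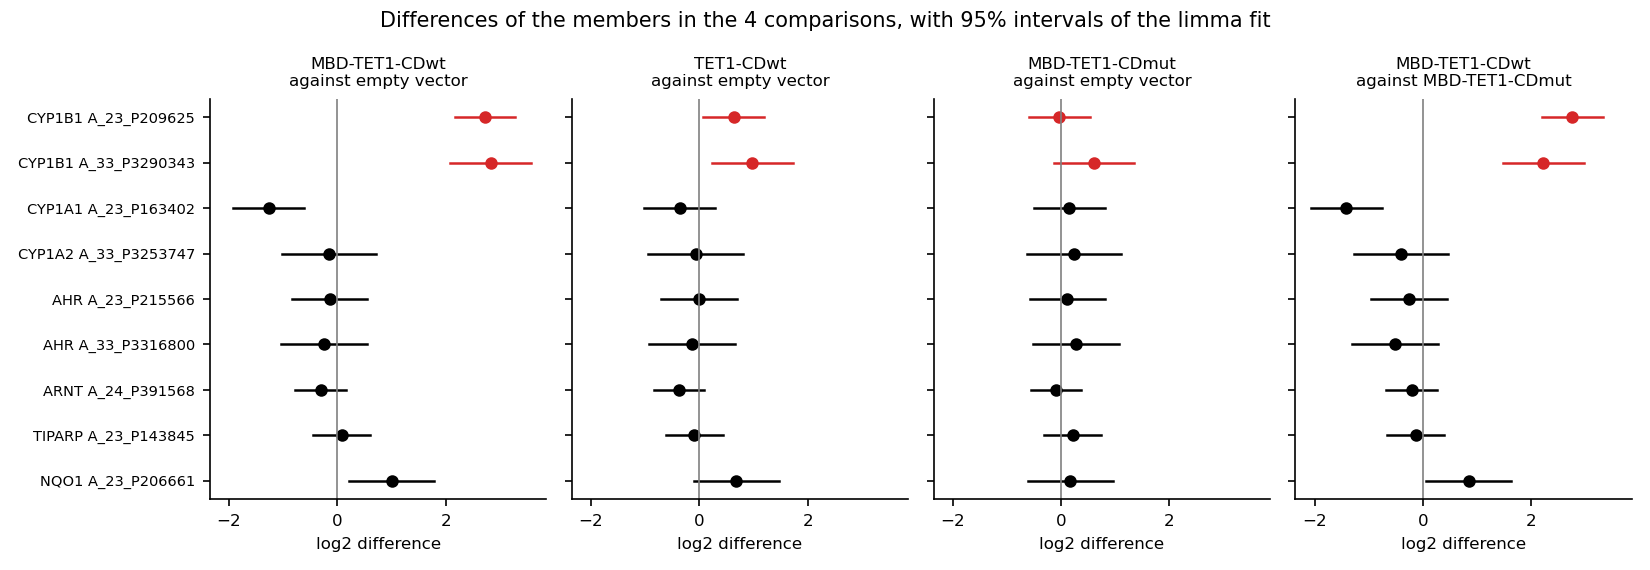
Difference of the log2 level (x axis) for each tested member probe (y axis) in the 4 comparisons (panels), with the 95% interval of the limma fit over all 8 arrays; CYP1B1 is in red and was chosen for its difference, and the other genes are in black. In both panels with MBD-TET1-CDwt against a control, CYP1B1 lies above 2, CYP1A1 below -1, the interval of NQO1 above 0 (0.22 to 1.79 and 0.06 to 1.62, before adjustment over all probes), and the intervals of AHR, ARNT, TIPARP, and CYP1A2 hold 0.

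None of the genes in a wider set of AHR targets was called, CYP1B1 being left out. The list held 21 genes including CYP1B1, of which 19 had a named probe and 12 were bright enough to be tested. Over all tested probes, 0.115% were called and 6.6% had an unadjusted p under 0.05 in MBD-TET1-CDwt against the empty vector. Of the 11 without CYP1B1, 0 were called in any comparison (at an unadjusted p under 0.05, 1 higher and 1 lower in MBD-TET1-CDwt against the empty vector, which were NQO1 and CYP1A1). Their median difference in that comparison was 0.08, with 7 of 11 above 0, against a median of -0.02 for all tested probes. Against MBD-TET1-CDmut the median was -0.14, with 5 of 11 above 0. Counted by size, 1 of the 11 (NQO1) was at least 2-fold higher than the empty vector with no overlap of clones and 1 (CYP1A1) at least 2-fold lower, where 1.07% and 0.83% of all tested probes passed this rule. For this rule the higher group had to be well above background on both arrays, and a dim signal in the lower group was set no lower than the faintest one well above background on its array. NQO1 passed at its measured 2.01-fold, and its difference from the empty vector was only 0.32 (log2) with normexp.

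Besides the members, 7 AHR targets were tested in MBD-TET1-CDwt against the empty vector. ALDH3A1, an aldehyde dehydrogenase, differed by 0.12, SLC7A5, a transporter of large neutral amino acids, by 0.10, and IDO1, which starts the breakdown of tryptophan, by 0.23, while CYP2S1, a further P450, differed by -0.23 and CCNG2, a cyclin, by -0.27. ABCG2, a drug efflux pump, had a mean difference of 0.06 from clones that parted, at -4.27 in #3 and -5.60 in #10, the latter not well above background, against -4.71 and -5.27 in the empty vector clones. The largest difference among those tested after NQO1 and CYP1A1 was 0.73 for VAV3, a guanine nucleotide exchange factor, and it rested on clone #10 (-0.68 in #3 and 0.27 in #10). In TET1-CDwt, SLC7A5 had the largest difference of the list without CYP1B1, 0.76, from 1.63 and 1.79 to 2.43 and 2.52, and was not called (adjusted p = 1.00 by limma). These 7 genes are outside the rule for named genes.

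Of the genes for the receptor complex and the proteins that assist it, all but AHRR were measured, and none was called. The list of the AHR complex held 13 genes, of which 12 had a named probe, all well above background on all 8 arrays. In MBD-TET1-CDwt against the empty vector the differences ran from -0.31 (ARNT) to 0.67 (CREBBP, a histone acetyltransferase), with a median of 0.06 and 0 of 12 called. CREBBP had the only unadjusted p under 0.05 (adjusted p = 0.69) and was picked after its value was seen. In this comparison 0.115% of all tested probes were called and 6.6% had an unadjusted p under 0.05. With so few calls over all probes, 0 calls in a short list says little about its genes, here and in the other lists. Among the chaperones, HSP90AA1 differed by 0.33, HSP90AB1 by -0.13, and PTGES3 (p23) by 0.12, all within the 5th to 95th percentile of all probes (-0.67 to 0.54).

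The basic helix-loop-helix PAS proteins that share ARNT or resemble it were 13, of which 11 were tested and 0 were called. Their median difference from the empty vector in MBD-TET1-CDwt was -0.07, and from MBD-TET1-CDmut -0.09. HIF1A and EPAS1, the alpha subunits of the hypoxia-inducible factors, differed by 0.18 and 0.04 from the empty vector. ARNT2, the paralog of ARNT, was the only one at least 2-fold apart with no overlap in a comparison, at -0.41 and -1.17 in MBD-TET1-CDwt #3 and #10 against 0.69 and -0.14 in MBD-TET1-CDmut #9 and #10. The difference of -1.06 had an adjusted p of 0.74 by limma, the 2 clones of each construct differed by nearly as much, and ARNT2 was named after its values were seen.

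The enzymes that make tryptophan-derived AHR ligands were measured in part. Of 10 genes, 7 were tested and the others, IDO2, TDO2, and KYNU, were not well above background on both arrays of any construct. The differences of the 7 from the empty vector in MBD-TET1-CDwt ran from -0.52 (KYAT1) to 0.35 (IL4I1), with a median of 0.14 and 0 called. The 4 measured genes that pass electrons to P450 enzymes, CYB5A, CYB5R3, FDX1, and FDXR, differed by -0.06 to 0.26, with 0 called, and POR, the main donor, was not analysed here.

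NRF2 targets were examined because NQO1 is one. Of 20 genes on that list, 17 were tested, NQO1 among them, and 0 were called in any comparison. Their median difference from the empty vector was -0.06 for MBD-TET1-CDwt, and it was 0.16 for TET1-CDwt, where 13 of 17 lay above 0. HMOX1, the heme oxygenase that is a sensitive NRF2 target, varied between sister clones, from 1.00 in TET1-CDwt #2 to 3.91 in TET1-CDwt #5. GCLC and GCLM, the subunits that make glutathione's first intermediate, differed by 0.05 and -0.04 between MBD-TET1-CDwt and the empty vector. AKR1B10, an aldo-keto reductase named after its values were seen, was at -4.37 and -4.53 in the MBD-TET1-CDmut clones. It was not well above background in either MBD-TET1-CDwt clone, at least 2.13-fold lower than in MBD-TET1-CDmut (adjusted p = 0.25 by limma). It was also near the detection limit in the empty vector clones, at -5.81 (not well above background) and -5.75. The MBD-TET1-CDmut clones were the highest of the 8 arrays.

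The other P450 genes were set beside CYP1B1, which was chosen for its high level in MBD-TET1-CDwt, so its place above them is no result. The array had a named probe for 54 genes whose symbols follow the P450 pattern, and 24 of these were not well above background on any array. Of the 25 tested besides CYP1B1, 0 were called in any comparison, and their median difference from the empty vector in MBD-TET1-CDwt was 0.03, with 13 of 25 above 0. The highest of these differences was 0.65 (CYP2U1) and the lowest -1.70 (CYP4X1). CYP4X1, a P450 of little known function, was at -4.64 in MBD-TET1-CDwt #3 but -1.44 in #10, and the empty vector clones were at -2.17 and -0.51, so the low mean rested on clone #3. CYP2E1, an ethanol-metabolizing enzyme, was at -5.00 and -4.22 in the empty vector clones and not well above background in either MBD-TET1-CDwt clone, which gives at least a 1.70-fold lower level there (adjusted p = 0.72 by limma). These 3 were picked after their values were seen. By the 2-fold rule with no overlap, which takes such a bound for CYP2E1, CYP1A1 was the only one of the 25 that passed against the empty vector, and CYP1A1 and CYP4X1 passed against MBD-TET1-CDmut, all in the lower direction, where 0.963% of all tested probes were lower by this rule in the second comparison and 1.15% higher.

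Among the PARP family, to which TIPARP belongs, 14 of 17 genes were tested and 0 were called. The median difference from the empty vector in MBD-TET1-CDwt was -0.20. PARP10, another mono-ADP-ribosyltransferase, was at -3.51 and -2.81 in MBD-TET1-CDwt #3 and #10 against -4.59 and -3.99 in the empty vector, 1.13 higher (adjusted p = 0.73 by limma), and its second probe differed by 0.35. No other gene of this list was at least 2-fold higher without overlap.

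**Figure D3:**
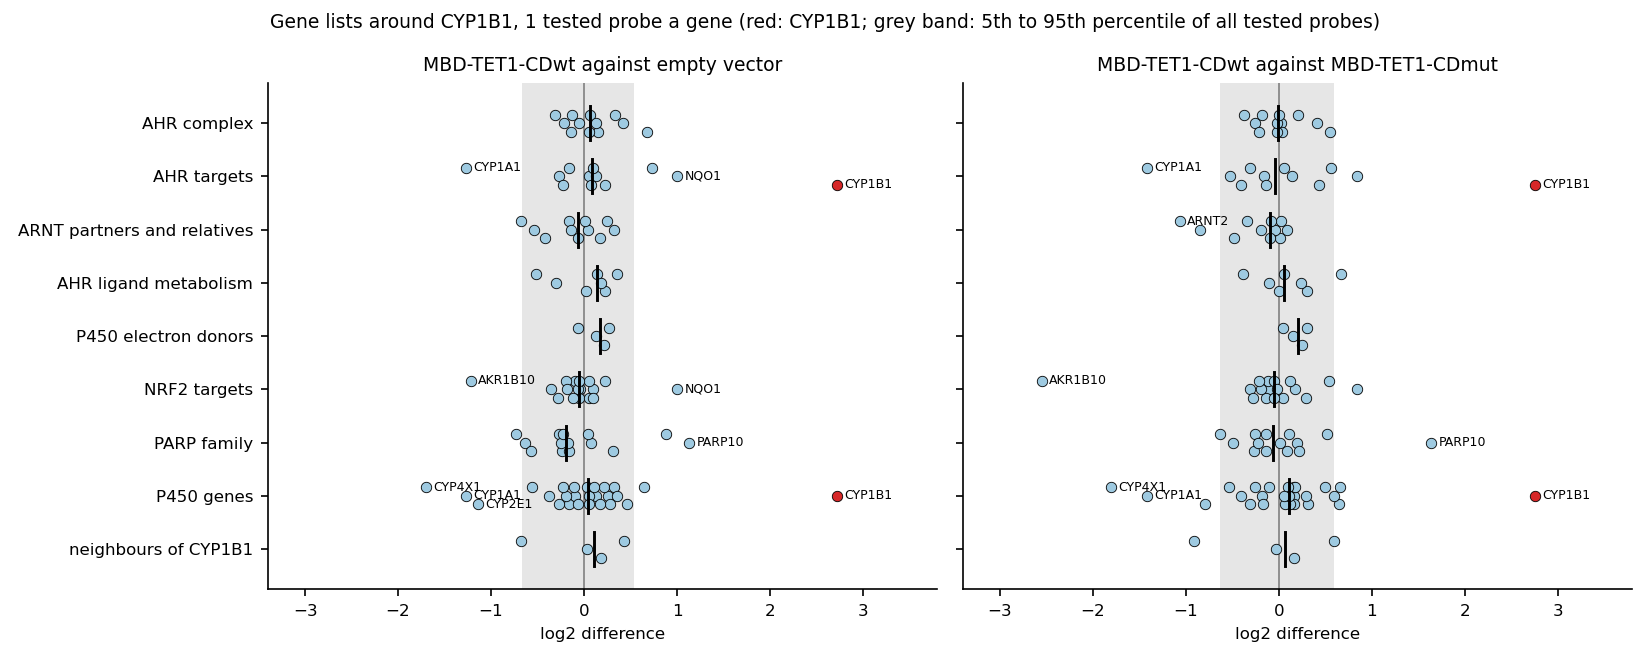
Difference of the log2 level (x axis) for the genes of each list (y axis), with 1 tested probe per gene, in MBD-TET1-CDwt against the empty vector (left) and against MBD-TET1-CDmut (right). Each circle is a gene, CYP1B1 in red, the short line is the median of the list, the grey band is the 5th to 95th percentile of all 22530 tested probes, and genes at least 1 log2 unit from 0 are named. Each list has its median within the band. CYP1B1, which was chosen for its high level in MBD-TET1-CDwt, lies farthest to the right of the listed genes in both panels.

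The 4 tested genes near CYP1B1 on its chromosome did not share a difference of its size. The 3 nearest genes with a named probe on either side were taken, with their place in RefSeq order counted in genes from CYP1B1. They were RMDN2 (-3), CDC42EP3 (-9), and QPCT (-14) on one side and CYP1B1-AS1 (2), ATL2 (8), and HNRNPLL (13) on the other. CYP1B1-AS1, the antisense RNA that starts beside CYP1B1, was not well above background on any array, and CDC42EP3 was so on 1. Neither was tested. RMDN2, a regulator of microtubule dynamics, was at -3.05 and -2.86 in the empty vector clones, -3.11 and -3.32 in TET1-CDwt, -2.70 and -2.35 in MBD-TET1-CDwt, and -3.16 and -3.10 in MBD-TET1-CDmut. Both MBD-TET1-CDwt clones were the highest of the 8, by 0.43 over the empty vector and 0.60 over MBD-TET1-CDmut, and neither difference was called. ATL2, a GTPase of the endoplasmic reticulum, ranged from 2.08 to 2.54 over the arrays by its brightest probe, and HNRNPLL, an RNA-binding splicing factor, from 0.02 to 0.38. QPCT, which forms amino-terminal pyroglutamate, was lower in MBD-TET1-CDwt (-0.75 and -1.16 against -0.68 and 0.13 in the empty vector), with a difference of -0.68 that was not called.

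The genes with profiles most like that of CYP1B1 over the 8 arrays were found by correlation. The brighter CYP1B1 probe was correlated with each of 2039 named probes that were well above background on both arrays of a construct and had a standard deviation of at least 0.5 over the arrays. The 6 genes with the highest Pearson r were MAGEA9 (0.98), a cancer-testis antigen on the X chromosome, GSTT2B (0.96) and GSTT2 (0.96), theta class glutathione S-transferases, SOX17 (0.95), an endoderm transcription factor, DNAJA4 (0.95), an HSP40 cochaperone, and ACKR3 (0.95), an atypical chemokine receptor. All 6 entered the ranking only through the MBD-TET1-CDwt clones. They were well above background on 2 arrays, or 3 for GSTT2 and 4 for DNAJA4. Much of their profile is thus signal near the detection limit, and a high r says little beyond their being high where CYP1B1 was. Each r is a description over 8 arrays that are 4 constructs with 2 clones each.

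MAGEA9, GSTT2B, GSTT2, SOX17, and ACKR3 were not well above background in either empty vector clone. MAGEA9 was at -4.42 and -3.88 in MBD-TET1-CDwt #3 and #10, at least 3.39-fold above the empty vector, and the 6 other arrays did not measure it well above background. SOX17 reached -0.47 and 1.13 in these clones, at least 75.7-fold above the empty vector. GSTT2 was at -3.93 and -2.01 in them and was also well above background in TET1-CDwt #2, at -4.70. GSTT2 and GSTT2B are nearly identical copies, and their probes may read both. The members' own correlations with CYP1B1 were 0.80 for NQO1, -0.01 for the brighter TIPARP probe, -0.27 for the brighter AHR probe, -0.49 for ARNT, and -0.38 for CYP1A2.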

How the data were processed

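RNA of 8 stable HEK293T clones was measured on single-color Agilent 4x44K arrays. The authors deposited a linear intensity for each spot, the processed signal that Agilent Feature Extraction (version 10.7.3.1 in the file headers, 9.5.1 in the submitters' processing notes) gives after background subtraction, and did not scale the arrays to each other. A second deposited table repeats these signals and was not used. Control spots and 213 to 269 outlier spots per array were removed. The log2 signals of a probe's spots were averaged, and the log2 of the 75th percentile over the array's probes was subtracted. A probe counted as well above background when over 50% of its spots did. No spot was saturated. Some items are not reported here. Probe accessions were paired with symbols through a RefSeq table (GRCh38.p14, used for names and gene order), which named 25419 of 34127 probes.

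A model with 4 group means was fitted to the 8 arrays with limma (3.58.1, R 4.3.3). It covered the 22530 probes that passed this flag on both arrays of a construct, left 4 residual degrees of freedom, and was adjusted by Benjamini-Hochberg over all of them. The methods state only a fold threshold and no test. The fit was tested on simulated data. The probe with the highest mean represents a gene. Genes named are all members, the genes near CYP1B1, and the 6 most like CYP1B1. List genes are named when called by limma or at least 2-fold from the empty vector in MBD-TET1-CDwt without overlap. All other genes named were picked after their values were seen. The members and the gene lists were chosen with earlier results of these data known. The number of arrays limits the precision. The p-values rest on a spread between clones that holds clonal and technical variation together. Alternatives were other background corrections, scalings, filters, variance estimates, and probe choices, and leaving out each clone. Python 3.11.15, numpy 2.4.6, pandas 2.3.3, and matplotlib 3.10.9 were used.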

Additional observations from a re-analysis of the deposited data

How the results depend on the processing

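CYP1B1 kept its direction in MBD-TET1-CDwt under every alternative run. Its difference from the empty vector was 2.61 to 2.84 with single clones left out and moved to 2.07 with normexp on negative control spots, an alternative chosen after seeing the data, and its difference from MBD-TET1-CDmut was 2.64 to 2.87 and moved to 2.11, and to 2.49 with the mean of both probes. MBD-TET1-CDmut minus the empty vector, -0.03, moved to 0.29 with the mean of both probes, and TET1-CDwt minus the empty vector was 0.34 to 0.94 with clones left out. Among the members without CYP1B1, none was called under any alternative, with 0 calls in each. The planned normexp fit on all spots was not run further, since it gave background means of -1321 and -240 on empty vector #2 and MBD-TET1-CDmut #10.

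The number of probes called was less stable. For MBD-TET1-CDwt against the empty vector, 26 probes became 2 with normexp, 10 without the filter on dim probes, 0 with only probes above background on all 8 arrays (a filter that keeps both CYP1B1 probes), 15 with a variance trend, 2 with the arrays of the compared groups alone, and 8 to 97 with clones left out, the highest without MBD-TET1-CDwt #3 and the lowest without empty vector #2. For MBD-TET1-CDwt against MBD-TET1-CDmut, 23 became 2, 11, 0, 10, and 0 in the same order, and 3 to 143, the highest without MBD-TET1-CDwt #10 and the lowest without either MBD-TET1-CDmut clone. TET1-CDwt against the empty vector had 0 to 2 with clones left out, and MBD-TET1-CDmut against it 0 to 1, and 1 with the compared arrays alone. The cause was not tested.

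Some differences changed sign in members that were not called, and the cause was not tested. For TET1-CDwt against the empty vector these were CYP1A2 (0.0021 with quantile normalization, 0.025 with median scaling), AHR (0.016 and 0.085), TIPARP (0.40 with the mean of both probes), and NQO1 (from 0.69 to -0.11 with normexp), and for MBD-TET1-CDmut ARNT (0.0062 with normexp). With clones left out, the ranges against the empty vector in MBD-TET1-CDmut were -0.12 to 0.41 for CYP1A1, -0.18 to 0.67 for CYP1A2, -0.14 to 0.37 for AHR, -0.25 to 0.0497 for ARNT, and -0.0555 to 0.38 for NQO1. In TET1-CDwt they were -0.49 to 0.36 for CYP1A2, -0.32 to 0.30 for AHR, and -0.21 to 0.0138 for TIPARP. In MBD-TET1-CDwt they were -0.58 to 0.27 for CYP1A2, -0.40 to 0.11 for AHR, and -0.15 to 0.31 for TIPARP, and against MBD-TET1-CDmut -0.36 to 0.0924 for TIPARP. The medians of the 7 lists run under both scalings differed by less than the spread between clones. No paired analysis was possible because the clones of each construct were isolated independently, and a shared clone number does not make a pair. Signal near background limits CYP1A1 and NQO1.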
